A study of Mus musculus with 21 samples.

Results

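The genes described here are 10 regulators grouped as general pluripotency genes: Pou5f1, Sox2, Sall4, Utf1, Dppa2, Dppa4, Dppa3, Lin28a, Zfp281 and Trim28. The group was meant to hold genes shared by naive and primed pluripotent cells, and whether each is expressed in both was not tested. The genes were chosen by symbol, as the rows of these names among the 23412 gene symbols counted in each of 21 RNA-seq libraries of mouse embryonic stem cells (mESCs). All 10 were listed in every library, and all 10 were among the 14963 genes with enough counts to be tested.

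The cells were male v6.5 mESCs, grown on gelatin. PDS5A and PDS5B are alternative accessory subunits of cohesin, the ring complex that folds chromosomes into loops, and STAG1 and STAG2 are another such pair. Wildtype (WT) mESCs received siGLO, the control siRNA, or siPds5b against Pds5b. Pds5b-/- mESCs received siGLO, and Pds5a-/- mESCs received siGLO, siPds5b, siStag1 or siStag2. Every transfection used 50 nM of siRNA, and RNA was taken 48 h later. Each of the 7 conditions had 3 libraries. The libraries of a knockout came from 1 CRISPR clone, so the gene and the clone cannot be told apart, and the p-values measure only the spread between these libraries. The study calls libraries of WT and of each knockout biological replicates, without saying what separates them.

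OCT4, the product of Pou5f1, and SOX2 bind DNA as a pair and hold the pluripotency network in place in the inner cell mass, the epiblast and cultured ES cells. SALL4 is a zinc finger partner of that pair, and UTF1 is a chromatin-bound factor of undifferentiated cells. DPPA2 and DPPA4 work as a dimer at developmental promoters and can switch on the genes of the 2-cell-like (2C-like) state, a rare state of ES cells that resembles the early embryo, and DPPA3 (Stella) guards the methylation state of oocyte and early embryo DNA. LIN28A binds RNA and blocks the maturation of let-7 microRNAs, ZFP281 is a zinc finger factor linked to the passage from naive to primed pluripotency, and TRIM28 (KAP1) is the corepressor that KRAB zinc finger proteins bring to endogenous retroviruses.

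RefSeq (GRCm38.p6) held promoter entries for 6 of the 10 members, namely Pou5f1, Sox2, Utf1, Lin28a, Zfp281 and Trim28. The windows of Sox2, Pou5f1 and Zfp281, 3 of the 4 members that fell after depletion of both PDS5 proteins, are shown so that the letters before their starts can be compared. Trim28 also fell, but its window lies inside longer annotated transcripts. The windows are the 250 bases before the annotated start, 5′ to 3′ on the plus strand, at chr3:34649745-34649994 for Sox2, chr17:35505782-35506031 for Pou5f1 and chr1:136624651-136624900 for Zfp281. For Pou5f1 this is the upstream of its entries. Capitals mark the GC box (GGGCGG), the inverted CCAAT box (ATTGG) and the SOX motif (ACAAAG), searched on both strands, and no marked matches overlap.
Sox2: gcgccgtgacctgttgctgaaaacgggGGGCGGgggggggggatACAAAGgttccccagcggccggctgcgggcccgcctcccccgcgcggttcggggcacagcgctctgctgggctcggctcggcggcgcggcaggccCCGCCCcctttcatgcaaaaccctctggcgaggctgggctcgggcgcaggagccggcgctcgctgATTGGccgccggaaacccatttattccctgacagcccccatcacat
Pou5f1: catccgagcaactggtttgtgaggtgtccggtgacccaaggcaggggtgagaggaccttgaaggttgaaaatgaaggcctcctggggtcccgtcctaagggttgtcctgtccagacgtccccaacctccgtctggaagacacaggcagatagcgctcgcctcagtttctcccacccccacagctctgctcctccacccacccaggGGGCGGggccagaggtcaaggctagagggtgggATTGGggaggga
Zfp281: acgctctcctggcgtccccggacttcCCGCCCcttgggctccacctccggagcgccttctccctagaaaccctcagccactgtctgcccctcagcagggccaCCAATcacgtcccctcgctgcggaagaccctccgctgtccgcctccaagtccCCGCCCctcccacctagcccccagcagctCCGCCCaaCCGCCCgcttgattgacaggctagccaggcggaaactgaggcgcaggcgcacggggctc
The Sox2 window was 72% G and C and held 2 GC boxes, 1 inverted CCAAT box and 1 SOX motif. The Pou5f1 window was 62.0% G and C with 1 GC box and 1 inverted CCAAT box, and the Zfp281 window was 69.6% G and C with 4 GC boxes and 1 inverted CCAAT box. Of the 32851 RefSeq promoter windows of the same length, 32.7% held a GC box, 33.8% an inverted CCAAT box and 16.5% the SOX motif at least once. The octamer ATGCAAAT (in 1.6% of windows) and the TATA motif TATAAA (12.4%) were in none of the member windows. The Trim28 window held 2 GC boxes, and that of Utf1, which did not fall, held 4. These are matches of letters and not measured binding sites.

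In mm10 with the GENCODE M21 annotation, Sox2 lies on the plus strand at chr3:34650405-34652461 in a single exon, a little downstream of its RefSeq start and inside the long transcript unit Sox2ot on the same strand, which had 3 to 37 raw counts per library against 4201 to 9615 for Sox2. Pou5f1 lies at chr17:35506018-35510772, Trim28 at chr7:12999114-13031035 and Zfp281 at chr1:136624901-136630053, all on the plus strand. Dppa4 at chr16:48283733-48294237 and Dppa2 at chr16:48303908-48319723 are adjacent on the same strand, 9670 bases apart with no gene between. Dppa3 lies at chr6:122626410-122630272. Pseudogenes with at least 90% identity over at least 200 bases were found for Dppa2 (6), Dppa4 (2) and Dppa3 (2), and the files list none of them, so reads of these 3 genes could have been split or lost and their levels are less certain. Trim28 overlaps Zbtb45 on the opposite strand over 6137 bases, and the use of strand in the counting is not given in the sources used here.

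Total counts per library ran from 17311090 to 23989198, with a median of 19628146. The log2 fold change of Pds5b transcript was -3.01 in Pds5b-/- against WT mESCs, and -1.52 and -1.39 with siPds5b in WT and Pds5a-/- mESCs. Those of Stag1 and Stag2 with their own siRNAs were -2.08 and -1.90. Pds5a transcript was at -0.24 in Pds5a-/- mESCs (adjusted p = 0.0415 in edgeR), so its count is no check of that label. The mESC genes Nanog, Esrrb and Zfp42 were detected in all 21 libraries. Among markers of other cells, summed trophoblast marker counts (Cdx2, Elf5, Hand1, Krt7, Krt18, Tfap2c) were 1831 to 1911 in WT siGLO and 7034 to 17619.6 in Pds5a-/- siGLO libraries, most of it Krt18, with Elf5 at or near 0. The libraries numbered 1 stood apart in Pds5a-/- mESCs: with siGLO, siPds5b and siStag1 their trophoblast sums were 7034, 6838 and 5068, against 10906 to 17695 in the libraries numbered 2 and 3. A fit of the libraries numbered 2 and 3 only was therefore added after the data were seen, and its values stand beside each call of a member that it changed.

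Divided by exon length, the normalized counts (counts scaled by TMM to a common library size) of the 10 genes spanned a wide range in WT siGLO mESCs. Pou5f1 was highest at 613 ± 13.3 CPM per kilobase of exon (SD, n = 3), followed by Trim28 at 359.8 ± 9.74. Utf1 (199 ± 21.5) and Sox2 (198 ± 10.9) did not differ beyond their spread. Lin28a (116 ± 11.8), Dppa4 (81.7 ± 11.9), Dppa2 (46.9 ± 10.5), Sall4 (36.1 ± 1.85) and Zfp281 (28.2 ± 1.86) came next, and the ranges of Dppa2 and Sall4 were close to each other. Dppa3 was lowest at 10.0 ± 2.08. The order changed in Pds5a-/- siGLO mESCs, where Dppa3 reached 60.7 ± 13.6, above Dppa2 at 37.6 ± 7.41, Sall4 at 36.7 ± 2.23 and Zfp281 at 26.6 ± 2.80 on the same scale.

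**Figure D1:**
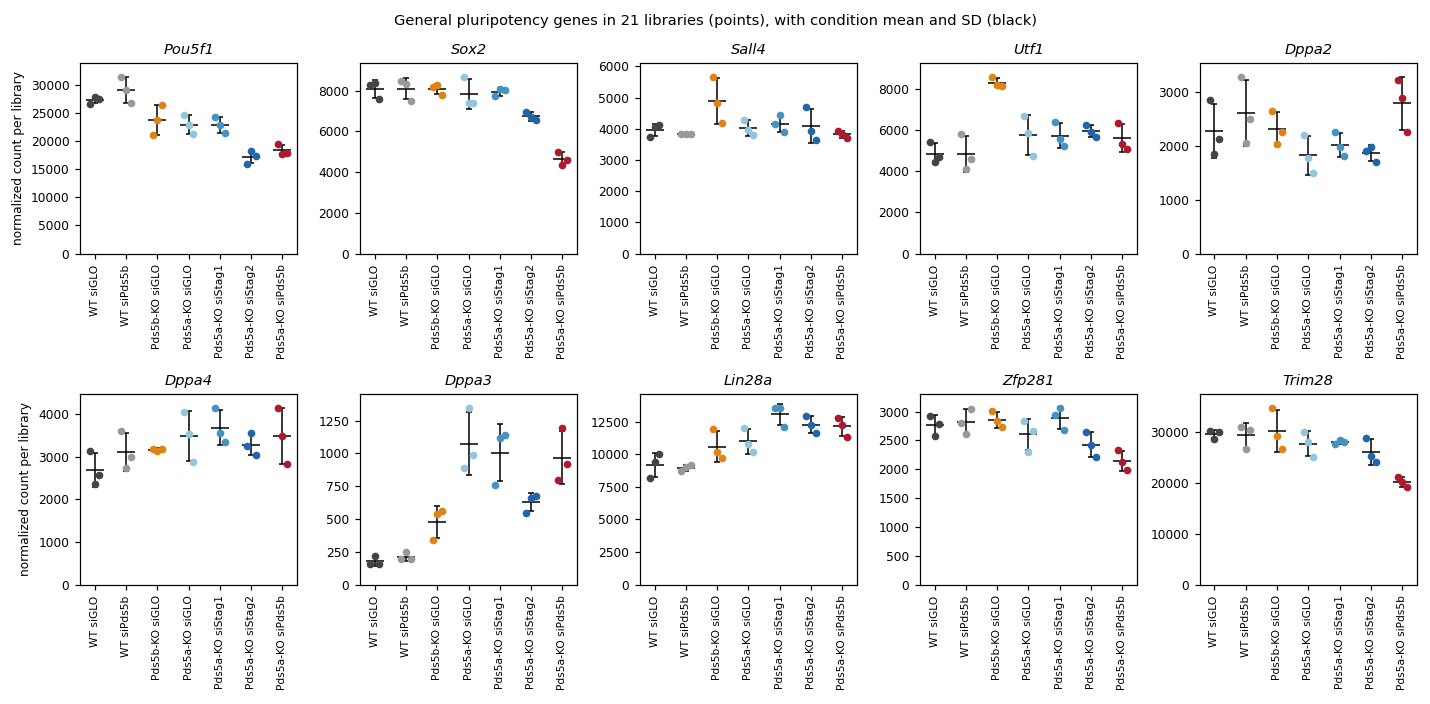
Normalized counts (y axes, starting at 0) of the 10 genes in each of the 21 libraries (points, 3 per condition in the order of their replicate numbers), with the mean and SD of each condition in black. Sox2 and Trim28 sit lowest in Pds5a-/- siPds5b mESCs, Pou5f1 is lowest in both Pds5a-/- siStag2 and Pds5a-/- siPds5b, Dppa3 is higher in every Pds5a-/- library than in every WT library, and Utf1 is highest in Pds5b-/- mESCs.

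Loss of 1 PDS5 protein changed 1 or 2 of the 10 genes, and depletion of both changed 6. A gene was called changed at an adjusted p under 0.01 (edgeR, adjusted over all 14963 genes). In Pds5a-/- siGLO against WT siGLO mESCs 1 of the 10 genes was called, Dppa3, which was higher, where 17.8% of all genes were (9.63% higher and 8.12% lower). In Pds5b-/- siGLO against WT siGLO, Dppa3 and Utf1 were higher, 2 of 10, where 18.2% of all genes were (9.64% higher and 8.57% lower). After dual depletion, in Pds5a-/- siPds5b mESCs, 6 of 10 were called against WT siGLO, where 32% of all genes were (17.4% higher and 14.6% lower). Of these Sox2, Pou5f1, Trim28 and Zfp281 were lower and Dppa3 and Lin28a higher. In Pds5a-/- siStag1 mESCs Dppa3 and Lin28a were higher than in WT siGLO, 2 of 10, where 20% of all genes were (10.6% higher and 9.37% lower). In Pds5a-/- siStag2 mESCs 4 of 10 were called, with Dppa3 and Lin28a higher and Pou5f1 and Sox2 lower, where 30.1% of all genes were (16.2% higher and 13.9% lower). These comparisons share the WT siGLO libraries. The member shares were near the background in both knockouts and with siStag1. They were above it with siStag2 (4 of 10 beside 30.1%) and further above it after dual depletion (6 of 10 beside 32%), with only 10 genes to count. The median log2 fold change of the 10 genes ran from -0.07 with siStag2 to 0.13 in Pds5b-/- mESCs in these 5 comparisons, where the medians over all genes were -0.003 and -0.003. In the libraries numbered 2 and 3 only, 2, 2, 7, 4 and 6 of the 10 genes were called in the same 5 comparisons, beside 19.2%, 16.1%, 31.8%, 19.7% and 25% of all genes. In that fit the member shares with siStag1 and siStag2 were also above the background, so an excess was not particular to dual depletion.

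Within the Pds5a-/- clone, siPds5b lowered Sox2, Trim28 and Pou5f1 against siGLO, 3 of 10, where 7.59% of all genes were (4% higher and 3.59% lower). The replicate block (the library number as a term) kept these and also called Dppa2, which was higher. With siStag2 1 of 10 was lower (Pou5f1), where 2.24% of all genes were (0.969% higher and 1.27% lower), and the block gave 2. With siStag1 0 of 10 were called by edgeR and 0 by DESeq2, where 0.0936% of all genes were (0.0134% higher and 0.0802% lower), and 1 of 10 had an unadjusted p under 0.05. With siPds5b in WT mESCs 0 of 10 were called by either tool and 0 had an unadjusted p under 0.05, where 0.00668% of all genes were (1 gene). Against siStag1, siPds5b lowered Sox2, Trim28 and Zfp281, 3 of 10, where 7.36% of all genes were (3.83% higher and 3.54% lower). With the block 5 were called, which added Pou5f1 (lower) and Dppa2 (higher). The shares of all genes given here are from the fit without the block, so the blocked counts have no background beside them. Against siStag2 it lowered Sox2 and Trim28, 2 of 10, where 3.96% of all genes were (2.04% higher and 1.92% lower). Between the knockouts Dppa3 was higher and Utf1 lower in Pds5a-/- than in Pds5b-/- mESCs, 2 of 10, where 19.2% of all genes were (9.74% higher and 9.46% lower).

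**Figure D2:**
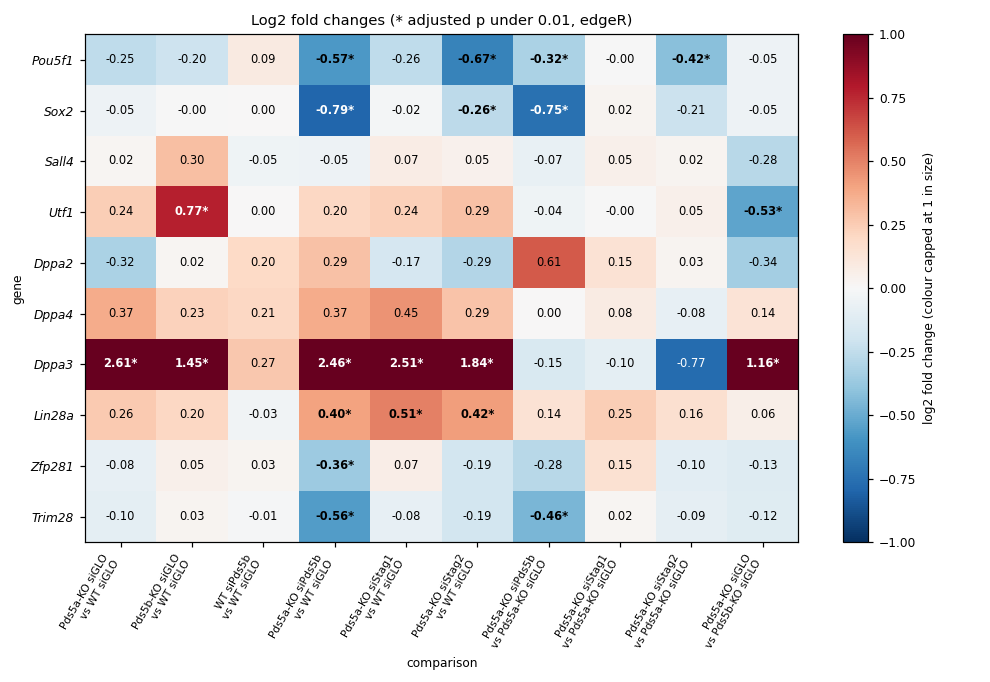
Log2 fold changes of the 10 genes (rows) in 10 comparisons (columns), with the value printed in each cell, colour for size and direction capped at 1, and an asterisk for an adjusted p under 0.01. In Pds5a-/- siPds5b against WT siGLO the 4 negative starred values are -0.79 for Sox2, -0.57 for Pou5f1, -0.56 for Trim28 and -0.36 for Zfp281, and the column of WT siPds5b against WT siGLO holds no asterisk.

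Sox2 fell after dual depletion and was not called after loss of either PDS5 protein alone. Its normalized counts were 8262, 8384 and 7562 in the 3 WT siGLO libraries, 8453, 8336 and 7488 in WT siPds5b, 8177, 8253 and 7775 in Pds5b-/- siGLO and 8656, 7375 and 7400.4 in Pds5a-/- siGLO. In Pds5a-/- siPds5b mESCs they were 5006, 4355 and 4601, below every library of the other 6 conditions. In bulk RNA, fewer cells with Sox2 transcript and less transcript per cell cannot be told apart. The mean after dual depletion was 4654 ± 329 (SD, n = 3), 57.7% of the 8069.6 ± 444 in WT siGLO and 59.6% of the 7810.4 ± 733 in Pds5a-/- siGLO. The log2 fold change was -0.79 against WT siGLO (SE 0.07, adjusted p = 5.69e-09) and -0.75 against Pds5a-/- siGLO (SE 0.07, adjusted p = 1.73e-07). Neither single loss moved it past the test: -0.05 in Pds5a-/- (95% interval -0.20 to 0.10) and -0.00014 in Pds5b-/- (-0.15 to 0.15), the last with a sign that changed between scalings.

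STAG depletion in the same clone gave smaller values. With siStag1 the Sox2 counts were 7721, 8094 and 8009, within the range of WT siGLO. With siStag2 they were 6954, 6682 and 6551, all below the WT siGLO and the Pds5a-/- siGLO libraries and all above the siPds5b libraries. The log2 fold change with siStag2 was -0.26 against WT siGLO (adjusted p = 0.00501) and -0.21 against Pds5a-/- siGLO (adjusted p = 0.0638, not called). The call against WT was lost without WT siGLO library 1 or 2 or without siStag2 library 2 or 3 (adjusted p 0.0169 to 0.0248). Directly compared, Sox2 was lower with siPds5b than with siStag1, a log2 fold change of -0.77 (adjusted p = 1.43e-07) and lower than with siStag2, a log2 fold change of -0.53 (adjusted p = 3.96e-05). In the order of means, the other 5 conditions each overlapped their neighbours, siStag2 lay below them and siPds5b below siStag2.

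Pou5f1 followed another order of conditions. Counts were 26620.1, 27758 and 27483 in WT siGLO and 31322, 29008 and 26688 in WT siPds5b. Pds5a-/- siGLO libraries had 24646, 22809.5 and 21235, and Pds5b-/- siGLO libraries 21041, 23677 and 26321, all below the WT siGLO libraries. The lowest values were in Pds5a-/- siPds5b (19426, 17768 and 17832) and Pds5a-/- siStag2 mESCs (15901, 18162 and 17368), which overlapped each other, while siStag1 libraries (24277, 22778 and 21460.0) lay within the range of Pds5a-/- siGLO. In the order of means there were thus 3 steps without overlap, both WT conditions, then Pds5b-/-, Pds5a-/- siGLO and siStag1, then siPds5b and siStag2.

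Against WT siGLO, Pou5f1 was lower with a log2 fold change of -0.57 with siPds5b (SE 0.08, adjusted p = 5.06e-06) and -0.67 with siStag2 (SE 0.08, adjusted p = 7.90e-07) in Pds5a-/- mESCs, to 67.2% and 62.8% of the WT mean. In the knockouts alone the log2 fold changes were -0.25 in Pds5a-/- (adjusted p = 0.0222) and -0.20 in Pds5b-/- (adjusted p = 0.0593), neither called. The study, using DESeq2 at an adjusted p under 0.01, reports a significant decrease of Pou5f1 in both knockouts. DESeq2 as run here, at the same threshold, called Pou5f1 in neither knockout. What sets the study's result apart was not tested. Without the libraries numbered 1, the Pds5a-/- value was -0.33 (adjusted p = 0.00134) and the siStag1 value against WT was -0.32 (adjusted p = 0.00166), both called, against -0.26 (adjusted p = 0.0188) for siStag1 in all libraries.

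Against Pds5a-/- siGLO the Pou5f1 changes were -0.32 with siPds5b (SE 0.08, adjusted p = 0.00912), -0.42 with siStag2 (SE 0.08, adjusted p = 0.00319) and -0.0037 with siStag1 (95% interval -0.17 to 0.17). Neither call held in every fit. The siPds5b call was lost without Pds5a-/- siGLO library 1 or 2 or any 1 siPds5b library (adjusted p 0.0104 to 0.0589) and under 4 other settings, 0.0134 with at least 10 counts in every library, 0.016 with library size only, 0.0117 with RLE and 0.0291 with only the conditions compared. The siStag2 call was lost without Pds5a-/- siGLO library 1 or 2 or siStag2 library 1 or 3 (0.0123 to 0.0306) and without all libraries numbered 1 (-0.31, adjusted p = 0.0147). Pou5f1 was also lower with siStag2 than with siStag1 (-0.41, adjusted p = 0.00950, 1 of 10 members where 0.394% of all genes were called, 0.167% higher and 0.227% lower), a call lost without any 1 of the 6 libraries (adjusted p 0.0178 to 0.0670) and without the libraries numbered 1 (adjusted p = 0.0184). With siPds5b its log2 fold change against siStag1 was -0.32, not called (adjusted p = 0.0101) but called with the replicate block (adjusted p = 0.00704), DESeq2 (adjusted p = 0.00353) and in the libraries numbered 2 and 3 only (adjusted p = 0.00460).

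Trim28 fell with Sox2 after dual depletion. Its counts were 30177, 28723 and 30037 in WT siGLO, 29942, 28029 and 25145 in Pds5a-/- siGLO and 34666, 29174 and 26728 in Pds5b-/- siGLO libraries. In Pds5a-/- siPds5b libraries they were 21077, 20168 and 19276, below every other library of the study. The siStag1 (27659, 28450.2 and 27992) and siStag2 libraries (28851, 25260.3 and 24042) overlapped Pds5a-/- siGLO. In log2 fold change it was at -0.56 against WT siGLO (SE 0.09, adjusted p = 1.89e-05) and -0.46 against Pds5a-/- siGLO (SE 0.09, adjusted p = 7.97e-04), a mean of 68.0% and 72.8% of those conditions. Against siStag1 it was -0.47 (adjusted p = 6.78e-04). Against siStag2 it was -0.37 (adjusted p = 0.00877), a call lost without any 1 of the 6 libraries (adjusted p 0.0107 to 0.0657) and without the libraries numbered 1 (-0.32, adjusted p = 0.0135).

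Zfp281 moved the same way over a smaller range. WT siGLO libraries had 2929, 2567 and 2779 counts and Pds5a-/- siPds5b libraries 2334, 2119 and 1984, with no overlap, a log2 fold change of -0.36 (SE 0.09, adjusted p = 0.00156). The call was lost without WT siGLO library 1 or Pds5a-/- siPds5b library 3 (adjusted p 0.0126 to 0.0139). Pds5a-/- siGLO libraries (2842, 2305 and 2666) overlapped the siPds5b ones, and that change was not called (-0.28, adjusted p = 0.0305). Pds5b-/- siGLO (3009, 2829 and 2726), WT siPds5b (2807, 2604 and 3048) and siStag2 libraries (2641, 2417 and 2211) overlapped WT siGLO. Zfp281 was highest with siStag1 (2936, 3056 and 2673), and siPds5b was below siStag1 by a log2 fold change of -0.43 (adjusted p = 0.00157), a call lost without siPds5b library 2 or 3 or siStag1 library 2 (adjusted p 0.0106 to 0.0143).

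In WT mESCs no member passed the test with the same siRNA. With siPds5b in WT the 95% interval of the log2 fold change was -0.14 to 0.15 for Sox2, -0.08 to 0.26 for Pou5f1 and -0.20 to 0.17 for Trim28. The WT siPds5b libraries had 30981, 26604 and 30455 counts of Trim28. The difference between the siPds5b effects in both genotypes was tested as an interaction. It was -0.75 on the log2 scale for Sox2 (SE 0.10, adjusted p = 8.03e-05), the 1 call among the 10 genes, where 1.48% of all genes were (0.588% higher and 0.896% lower). The Sox2 call was kept in the fits that left out 1 library or used other settings (adjusted p at most 0.00153). Pou5f1 (-0.41, adjusted p = 0.0461), Trim28 (-0.44, adjusted p = 0.0430) and Zfp281 (-0.31, adjusted p = 0.176) had negative values that were not called. The effect of siPds5b on these 3 genes is thus not shown to differ between the genotypes. For Sall4, Utf1 and Lin28a the intervals of the difference were -0.29 to 0.24, -0.41 to 0.33 and -0.07 to 0.43.

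**Figure D3:**
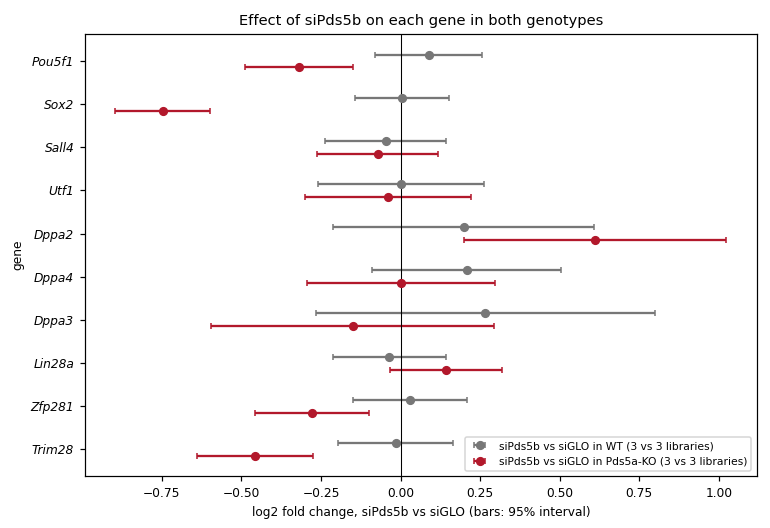
Log2 fold change of each gene with siPds5b against siGLO (x axis) in WT (grey) and Pds5a-/- mESCs (red), 3 against 3 libraries each, with 95% intervals as bars. All 10 WT intervals include 0, and in Pds5a-/- mESCs the Sox2 interval runs from -0.90 to -0.60 and does not overlap the WT interval.

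Dppa3 rose in both knockouts and was called in each comparison of a Pds5a-/- condition with WT siGLO. Counts were 156, 219.7 and 156 in WT siGLO and 193, 247 and 195 in WT siPds5b libraries. They were 337, 535 and 563 in Pds5b-/- siGLO and 888, 1343 and 986 in Pds5a-/- siGLO libraries. Every knockout library was above every WT library, and every Pds5a-/- siGLO library was above every Pds5b-/- one. The mean rose from 177 ± 36.8 to 1072 ± 239.6 in Pds5a-/- (SD over 3 libraries each), 6.10-fold or 2.61 in log2 (SE 0.24, adjusted p = 4.35e-07). In Pds5b-/- it rose 2.73-fold (1.45, SE 0.24, adjusted p = 2.29e-04). Pds5a-/- was above Pds5b-/- by 1.16 (adjusted p = 6.90e-04). Summed trophoblast markers, 1831 to 1911 in WT siGLO, 2907 to 4719 in Pds5b-/- siGLO and 7034 to 17619.6 in Pds5a-/- siGLO libraries, also rose in this order of conditions, and their part in the Dppa3 values was not tested.

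Further depletion in Pds5a-/- mESCs added nothing that passed the test for siPds5b (795, 1190.0 and 917 counts, -0.15 against Pds5a-/- siGLO, 95% interval -0.60 to 0.29) or siStag1 (756, 1117 and 1142 counts, -0.10, interval -0.54 to 0.35). With siStag2 Dppa3 counts were 549, 662 and 677, all below the Pds5a-/- siGLO libraries and all above WT. That difference was -0.77 (SE 0.21, adjusted p = 0.0362, not called), and it was called with the replicate block (-0.75, adjusted p = 8.87e-05), with DESeq2 (adjusted p = 0.00262) and in the libraries numbered 2 and 3 only (-0.80, adjusted p = 0.00661).

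Lin28a was higher than WT in Pds5a-/- mESCs depleted of another cohesin subunit. WT siGLO libraries had 8164, 9386 and 10008 counts and Pds5a-/- siGLO libraries 12032, 10816 and 10144, without overlap, a log2 fold change of 0.26 that was not called (adjusted p = 0.0245), and 0.11 in the libraries numbered 2 and 3 only (adjusted p = 0.292). Counts were 12806, 12268 and 11331 with siPds5b, 13503, 13519 and 12116 with siStag1 and 12928, 12242 and 11615 with siStag2. Against WT siGLO these gave 0.40 (adjusted p = 5.05e-04), 0.51 (adjusted p = 7.41e-05) and 0.42 (adjusted p = 4.08e-04), 1.32-, 1.42- and 1.33-fold. Against Pds5a-/- siGLO none of them passed (adjusted p of at least 0.245). Pds5b-/- libraries had 11927, 10141 and 9687 (0.20, adjusted p = 0.0703, and 0.03 without the libraries numbered 1). WT siPds5b libraries had 8716, 9047 and 9138.

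Utf1 rose in the Pds5b-/- clone. Its counts there were 8550.2, 8169 and 8134, above the other 18 libraries, against 5427, 4421 and 4678 in WT siGLO and 5815, 4117 and 4607 in WT siPds5b. The rise over WT was 1.71-fold (0.77, SE 0.13, adjusted p = 1.09e-04). Pds5a-/- libraries had 6650.0, 5856 and 4708 with siGLO, 6352, 5323 and 5068 with siPds5b, 6384, 5544 and 5233 with siStag1 and 6243, 5893 and 5654 with siStag2, and no comparison of these with WT or with each other was called. With siStag2 the value against WT was 0.29 (adjusted p = 0.0660), and 0.34 and called in the libraries numbered 2 and 3 only (adjusted p = 0.00317). Utf1 was lower in Pds5a-/- than in Pds5b-/- siGLO by a log2 fold change of -0.53 (adjusted p = 0.00311), a call lost without Pds5a-/- library 2 or 3 or Pds5b-/- library 1 (adjusted p 0.0121 to 0.0166).

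Sall4 was called by edgeR in none of the 14 comparisons of all libraries without the block. With the replicate block it was called in Pds5b-/- against WT (0.29, adjusted p = 0.00585) and in Pds5a-/- against Pds5b-/- (-0.28, adjusted p = 0.00844). Counts were 3730.2, 4042 and 4111 in WT siGLO, 3846, 3825 and 3835 in WT siPds5b, 4290.5, 3962 and 3811 in Pds5a-/- siGLO, 3931, 3829 and 3715 with siPds5b, 4139, 4444 and 3900.1 with siStag1 and 4705, 3927 and 3629 with siStag2. After dual depletion the 95% interval of its log2 fold change against WT was -0.24 to 0.14, and the -0.79 of Sox2 lies outside it. The highest counts were in Pds5b-/- libraries (5653, 4813 and 4186), 0.30 against WT (adjusted p = 0.0149, and 0.00787 in DESeq2). The value depended on the libraries numbered 1, as it was 0.14 in the libraries numbered 2 and 3 only (adjusted p = 0.181). Without Pds5b-/- library 3 that value was 0.42 and called (adjusted p = 0.0015), as was the value of Pds5a-/- against Pds5b-/- (-0.41, adjusted p = 0.00193, against -0.28 and 0.0221 with it).

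Dppa2 and Dppa4, neighbours on chromosome 16 whose proteins act together, were called by edgeR in none of the 14 comparisons of all libraries without the block. Dppa2 counts were 2840.0, 1855 and 2123 in WT siGLO, 3270.5, 2053 and 2501 in WT siPds5b and 2639, 2034 and 2256 in Pds5b-/- siGLO. Pds5a-/- libraries had 2204, 1781 and 1489 with siGLO, 2259, 1981 and 1818 with siStag1, 1905, 1981 and 1693 with siStag2 and 3226, 2879.6 and 2251 with siPds5b. Every siPds5b library was thus above every Pds5a-/- siGLO library. The log2 fold change was 0.61 (SE 0.19, adjusted p = 0.0430), and with the replicate block it was 0.61 and called (adjusted p = 4.00e-04), as it was in the libraries numbered 2 and 3 only (0.65, adjusted p = 0.00299). Against siStag1 the value was 0.46 (adjusted p = 0.122, and 0.00490 with the block). Dppa2 against WT siGLO stayed uncalled after dual depletion (0.29, interval -0.12 to 0.70).

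Dppa4 counts were 3129, 2364 and 2583 in WT siGLO, 3602, 2741 and 2986 in WT siPds5b and 3190.0, 3129.5 and 3179 in Pds5b-/- siGLO. In Pds5a-/- mESCs they were 4048, 3527 and 2876 with siGLO, 4141, 3481 and 2835 with siPds5b, 4140.1, 3568 and 3346 with siStag1 and 3267, 3549 and 3053 with siStag2. Where Dppa2 rose with siPds5b over Pds5a-/- siGLO in the blocked fit, Dppa4 had a log2 fold change of -0.0009 (SE 0.09, adjusted p = 0.996). Without the block Dppa4 had 0.001 (interval -0.29 to 0.30). Against WT siGLO it was 0.37 with siPds5b (adjusted p = 0.0389) and 0.45 with siStag1 (adjusted p = 0.0200). These were called without Pds5a-/- siPds5b library 3 (adjusted p = 0.00943) and without WT siGLO library 1 (adjusted p = 0.00929), and both in the libraries numbered 2 and 3 only (adjusted p = 0.00961 and 0.00135). With siStag2 Dppa4 was at 0.29 against WT (adjusted p = 0.108), and at 0.41 and called in the libraries numbered 2 and 3 only (adjusted p = 0.00394). DESeq2 also called the siStag1 value (adjusted p = 0.00589).

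Within conditions, Dppa2, Dppa4 and Utf1 deviated together. Over the 21 libraries, the deviations of log2 levels from the condition means had a Pearson r of 0.933 for Dppa2 and Dppa4, 0.929 for Utf1 and Dppa4 and 0.918 for Utf1 and Dppa2. Sall4 and Lin28a had 0.831, Pou5f1 and Sox2 had 0.291, and Dppa3 and Zfp281 had -0.695. These values share libraries, depth and the replicate numbers and are a description only. In 6 of the 7 conditions library 1 held the highest Dppa2 count.

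Likeness of the 7 condition means was ranked among the 9845 genes outside the members whose log2 CPM averaged 3 or more. Closest to Sox2 were Nras (Pearson r = 0.985), Zbtb45 (0.982), Ppid (0.981), Epb4.9 (0.980) and Morn4 (0.979). Among the members, left out of this ranking, Trim28 had 0.987 with Sox2. Epb4.9 had a mean of 1134 normalized counts in WT siGLO and 323 after dual depletion. Zbtb45, with 548 and 287, is the gene on the strand opposite Trim28, and whether their reads were told apart where they overlap depends on the use of strand, which is not given. For Pou5f1 the nearest were Mtx1 (0.999), Ranbp3 (0.997), Eif2ak1 (0.991), Ddx51 (0.990) and Nop58 (0.990). These correlations rest on 7 means each and were the highest of many.

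Naive pluripotency factors, the genes that naive but not primed cells keep high, fell in conditions where most general factors did not. Of the 11 listed (Nanog, Esrrb, Klf2, Klf4, Klf5, Tfcp2l1, Tbx3, Zfp42, Prdm14, Nr0b1 and Nr5a2), 8 were lower in Pds5a-/- and 8 in Pds5b-/- siGLO mESCs than in WT siGLO, with medians of -0.83 and -0.76 beside all-gene medians of 0.002 and -0.003. After dual depletion all 11 were lower (median -2.03), with Prdm14 at -2.95, Tbx3 at -2.56, Klf4 at -2.45 and Tfcp2l1 at -2.28. Against Pds5a-/- siGLO 10 of 11 were lower with siPds5b (median -1.20) and 8 with siStag2 (median -0.62). In the interaction 6 of 11 were called with a negative sign, Prdm14 (-1.91), Nr0b1 (-1.80), Esrrb (-1.26) and Klf4 (-1.21) with the largest values. In the libraries numbered 2 and 3 only the counts were 9, 9, 11, 9, 8 and 8 in these 6 comparisons, all lower. The counts of Nanog, for scale, were 10453 ± 508 in WT siGLO and 3237 ± 552 after dual depletion (SD over 3 libraries).

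Genes known as joint targets of OCT4 and SOX2 moved less evenly. Of 11 (Fgf4, Fbxo15, Nanog, Lefty1, Zfp42, Spp1, Upp1, Tdgf1, Dppa5a, Gdf3 and L1td1, of which Nanog and Zfp42 are also among the naive factors), 5 were lower after dual depletion and 7 lower with 1 higher in Pds5a-/- siStag2 mESCs, both against WT siGLO (medians -0.29 and -0.45). Against WT, 4 were lower in Pds5a-/- and 7 in Pds5b-/- siGLO mESCs, where Pou5f1 and Sox2 were not called by edgeR in all libraries. Fgf4, a signal for exit from the naive state, had -0.89 in Pds5b-/- mESCs (adjusted p = 9.92e-07). Against Pds5a-/- siGLO, 5 were lower with siPds5b and 6 with siStag2, including Zfp42 (-1.10 and -0.85) and Nanog (-0.96 and -0.58). In the libraries numbered 2 and 3 only, 5 were lower after dual depletion, 6 lower and 1 higher with siStag2, 3 lower in Pds5a-/- and 6 in Pds5b-/- against WT, and 5 and 4 were lower with siPds5b and siStag2 against Pds5a-/- siGLO.

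Formative and primed genes went both ways. Of 10, 5 were higher and 2 lower after dual depletion against WT siGLO (median 0.42), with the methyltransferase gene Dnmt3a at 1.68, Lef1 at 1.28 and Pou3f1, a POU factor related to Pou5f1, at 1.25, while Fgf5, a classical primed marker, was at -1.63. In Pds5a-/- and Pds5b-/- siGLO mESCs Fgf5 was at -3.12 and -3.49. Against Pds5a-/- siGLO, siPds5b raised 2 of 10 (Lef1, 1.33, and Pou3f1, 0.80), and with the replicate block 3 were higher and 1 lower. Without the libraries numbered 1, 4 were higher and 4 lower after dual depletion against WT (median 0.21), and 6 were higher with siPds5b against Pds5a-/- siGLO.

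The 2C-like genes, which DPPA2 and DPPA4 can activate, had medians far from 0 in comparisons where that of the members was near it. Of 16 listed genes, 15 were tested, among them Zscan4, Usp17l, Tcstv and Dux family members with near-identical copies, so the values of single genes are uncertain. In Pds5a-/- siGLO mESCs 14 of 15 were lower than in WT (median -2.84), with Zscan4a at -3.21 and Zscan4c at -3.08, and siPds5b raised all 15 over Pds5a-/- siGLO (median 2.77). Their summed normalized counts were 2404 to 3680.4 in WT siGLO, 327 to 487 in Pds5a-/- siGLO, 1802 to 3509 in Pds5a-/- siPds5b, 232 to 553 with siStag1 and 238 to 423 with siStag2 libraries. In the interaction 9 of 15 were called, all positive (median 2.72). In the libraries numbered 2 and 3 only, the 3 counts were 12, 13 and 6. Over the same conditions Dppa2 means ran from 1825 in Pds5a-/- siGLO to 2786 in Pds5a-/- siPds5b, and Dppa4 means were 3484 and 3485. The part of Dppa2 and Dppa4 in the 2C-like counts was not tested.

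Partners of the members had medians close to 0. Of 11 NuRD subunits, the deacetylase and remodelling complex that SALL4, ZFP281 and TRIM28 can recruit, 3 were higher in Pds5a-/- (Mta3 0.48, Mbd3 0.40, Rbbp7 0.31), and 4 higher and 1 lower in Pds5b-/- mESCs (Mta1 0.94, Hdac2 -0.47). With siPds5b against Pds5a-/- siGLO their median was -0.03 and none was called. Of 11 TRIM28 partners, 3 were lower after dual depletion against WT siGLO, Zfp57 (-0.76), Smarcad1 (-0.45) and Chaf1b (-0.35), with a list median of -0.05. Of 8 listed genes of let-7 processing in the files, 3 were higher in Pds5b-/- mESCs, Zcchc11 (0.46), Trim71 (0.39) and Drosha (0.36), and after dual depletion 1 was higher (Trim71, 0.37) and 1 lower (Dis3l2, -0.35). In the libraries numbered 2 and 3 only 1 of these 8 was higher in Pds5b-/- mESCs, and after dual depletion 1 was higher and none lower. In the same fit, 3 NuRD subunits were higher and 1 lower in each knockout, and 1 TRIM28 partner was higher and 3 lower after dual depletion.

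Among 12 tested paralogs of the members, 1 was higher and 4 lower in Pds5a-/- siGLO against WT, and 1 was higher and 4 lower in Pds5a-/- siPds5b against WT. Without the libraries numbered 1 these counts were 1 and 7, and 2 and 6, and with the replicate block 2 and 7, and 4 and 4. Sox3, a SOXB1 relative of Sox2, rose with siPds5b over Pds5a-/- siGLO (1.39, adjusted p = 0.000245) where Sox2 fell, and Sall1 fell (-1.08). Sox1, another SOXB1 gene, was lower in Pds5a-/- (-1.28) and higher in Pds5b-/- mESCs (1.43). Lin28b, the relative of Lin28a, was higher in Pds5b-/- (0.34, adjusted p = 0.00735).

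Trophoblast markers were higher in the Pds5a-/- clone and in part in the Pds5b-/- clone. All 5 tested trophoblast markers were higher in Pds5a-/- siGLO than in WT siGLO (median 3.31), among them Krt7, Hand1 (3.50), Krt18 (3.31) and Cdx2 (1.90), and 4 of 5 after dual depletion. In Pds5b-/- siGLO against WT siGLO Cdx2 was higher (2.94, adjusted p = 5.27e-05 in edgeR). Krt7 (1.53), Krt18 (1.42), Hand1 (0.43) and Tfap2c (0.20) were not called there, and with the replicate block 3 markers were higher. With siPds5b against Pds5a-/- siGLO, the comparison with the Sox2 and Trim28 decreases, 1 was lower (Tfap2c, -0.86) and the summed counts were 7034 to 17619.6 and 6838 to 17695. Summed fibroblast markers were 2329.5 to 3230.0 in WT siGLO, 971 to 2852 in Pds5a-/- siGLO and 1475 to 3719.6 in Pds5a-/- siPds5b libraries. None of the 6 tested was called in either Pds5a-/- condition against WT siGLO or between them. The lowest sums were those of library 1 in both Pds5a-/- conditions, against 2613 and 2852 (siGLO) and 3669 and 3719.6 (siPds5b) in libraries 2 and 3, and without the libraries numbered 1 a single marker was higher in each against WT. Summed primitive endoderm markers were 894 to 1524, 955 to 2063 and 1028 to 1841, with none of 8 called. Neuroectoderm sums were 3258 to 3856, 2098 to 2484 and 1666 to 1916, with 2 of 6 lower in Pds5a-/- siGLO against WT and 3 lower and 1 higher after dual depletion. Streak and mesoderm sums were 465 to 1213, 249.9 to 393 and 291 to 365, with 1 of 5 lower in each (Eomes). With library 1 of every condition left out, 2 streak and mesoderm markers were lower in each, and 2 neuroectoderm markers higher and 3 lower after dual depletion. No marker of these 5 lists was at 0 in every library of a condition. Their part in the member values was not tested.

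**Figure D4:**
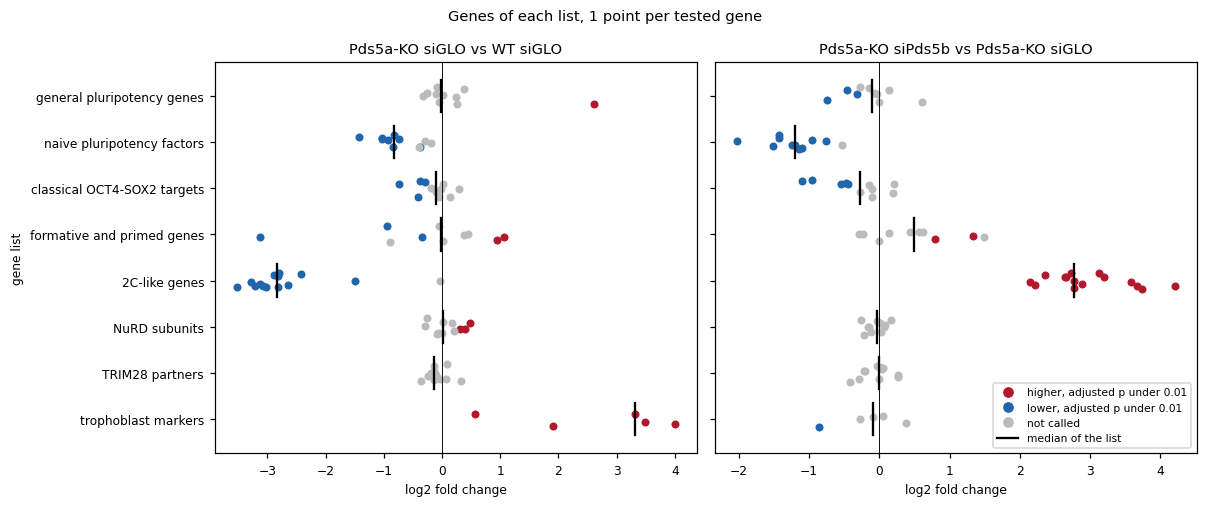
Log2 fold changes (x axes) of the members and 7 gene lists (rows), 1 point per tested gene, with called genes in red (higher) and blue (lower), uncalled genes in grey and the median as a black bar. In Pds5a-/- siGLO against WT siGLO (left) the naive factors sit at a median of -0.83 and the members at -0.01, and with siPds5b against Pds5a-/- siGLO (right) the naive factors sit at -1.20, the 2C-like genes at 2.77 and the members at -0.11.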

How the data were processed

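The deposited files hold raw counts of reads per gene symbol, 1 file per library, which the authors made from poly-A libraries with STAR and mm10 (per the submitters' processing notes, which also name DESeq2). The counting tool, annotation and use of strand are not given in the sources used here. Normalized counts are TMM-scaled to the mean effective library size of 19816922. edgeR 4.0.16 (R 4.3.3) fitted 1 quasi-likelihood model of the 7 conditions in 21 libraries, after filterByExpr left 14963 of 23412 symbols, with Benjamini-Hochberg adjustment and calls at an adjusted p under 0.01. The SE is the log2 fold change divided by the square root of F. Alternatives were DESeq2 1.42.0, other normalizations and filters, a block for the replicate number, fits without the other conditions, leaving out each library and, chosen after seeing the data, the libraries numbered 2 and 3 only. Libraries of equal number deviated together (every correlation over 0.1, from 0.112 to 0.757) in 5 of 14 comparisons, and no source states a pairing: these were siPds5b against siGLO in WT, each siRNA against siGLO in Pds5a-/- and siPds5b against siStag1 in Pds5a-/-. No replicate pair was within sampling noise (mean chi-square per gene of at least 6.14). In counts simulated for Pds5a-/- siPds5b against WT siGLO (14733 genes), 45% of changes of 0.5 and 79% of changes of 1 on the log2 scale were called. Exon lengths came from GENCODE M21, and near copies from blastn 2.17.0. The members and the 13 other gene lists were chosen with earlier results of these data known. All 10 members are named. From a list at most 4 called genes a comparison are named, those with the largest changes whose log2 CPM averaged 1 or more. For Sox2 and Pou5f1 the 5 most similar genes outside the members are named. Figures were drawn with matplotlib 3.10.9 in Python 3.11.15.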

Additional observations from a re-analysis of the deposited data

Results flagged for a closer look

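The effect of siPds5b on Sox2 differed between Pds5a-/- and WT mESCs. The difference between the effects was -0.751 on the log2 scale (95% interval -0.96 to -0.54), by the interaction term of the edgeR model (adjusted p = 8.03e-05). All 3 Pds5a-/- siPds5b libraries were below all 3 Pds5a-/- siGLO libraries, and the WT siPds5b libraries overlapped WT siGLO. It was the 1 member whose interaction passed the threshold.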

How the results depend on the processing

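All siRNA names without a genotype refer to Pds5a-/- mESCs. Of the 140 member changes, 28 were called, and DESeq2 and the replicate block kept all 28. No called change reversed under any setting. At an adjusted p under 0.05 the members called were 3 in place of 1 in the interaction, 3 for 1 in Pds5a-/- against WT siGLO, 5 for 3 in siPds5b against Pds5a-/- siGLO, 4 for 2 in siStag1 against WT siGLO and 2 for 1 in siStag2 against Pds5a-/- siGLO. Dppa4 in siPds5b against WT siGLO and Pou5f1 in siPds5b against siStag1 were also called at 0.05. So was Sall4, in Pds5b-/- against WT siGLO and in Pds5a-/- against Pds5b-/-. In all, 41 member changes passed 0.05. With the replicate number as a block they were 2 for 1 in Pds5a-/- against WT siGLO, 5 for 3 in siPds5b against siStag1, 4 for 2 in siPds5b against siStag2, 2 for 1 in siStag2 against Pds5a-/- siGLO and 2 for 1 in siStag2 against siStag1. Some comparisons did not meet the pairing rule, by which every same-number correlation had to exceed 0.1. In these the block added calls of Dppa4 (Pds5a-/- siGLO, siPds5b and siStag1 against WT), Sall4 (Pds5b-/- against WT and Pds5a-/-), Utf1 (siStag2 against WT), Dppa2 and Dppa3 (siPds5b against siStag2) and Dppa3 (siStag2 against siStag1). Their median same-number correlations ran from -0.036 (siStag2 against siStag1) to 0.317 (Pds5b-/- against WT). In the comparisons that met the rule, no other call changed than those given beside their results. For siPds5b against siStag2, 1 member in place of 2 was called with at least 10 counts in every library, with RLE normalization, with only the conditions compared and in the libraries numbered 2 and 3 only. For siStag2 against Pds5a-/- siGLO, DESeq2 called 2 and the fit of only the conditions compared 0, in place of 1. For siStag2 against siStag1, 0 in place of 1 were called with at least 10 counts in every library, with library size only, with only the conditions compared and in the libraries numbered 2 and 3 only. The libraries numbered 2 and 3 only, a fit chosen after seeing the data, also gave 2 for 1 in Pds5a-/- against WT siGLO and 4 for 2 in siStag1 against WT siGLO. Leaving out 1 library gave 1 to 3 calls in Pds5a-/- against Pds5b-/-, 1 in siPds5b against siStag2, 0 to 1 in siStag2 against Pds5a-/- siGLO and 0 in siStag2 against siStag1. Some such fits also lost calls in siPds5b and siStag2 against WT siGLO and in siPds5b against Pds5a-/- siGLO and siStag1. Those losses, and the calls gained without 1 library, are given beside the results of each gene. Of the 99 changes with an adjusted p of 0.05 or more, 39 had another sign under some setting, none larger than 0.198 in size as reported, and 7 were called under some setting. The cause of these differences was not tested. Among the members, precision was least for Dppa3 (170 to 1436 raw counts per library). Changes of the size of 0.5 were recovered less often than not in counts simulated for 14733 genes. The rate was not measured for the members alone. Smaller changes of Sox2 (siStag2 against WT siGLO) and Zfp281 (siPds5b against WT siGLO) were called. So were smaller changes of Pou5f1 and Trim28 (siPds5b against Pds5a-/- siGLO) and Lin28a (siPds5b against WT siGLO). Where an interval is given, sizes outside it are not favoured for that member. Without an interval, an uncalled change cannot be read as absent.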
